A study of Mus musculus with 18 samples.

Results

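Oligodendrocyte lineage and myelin genes were followed in RNA of laser-captured mouse optic nerve head. The members were a fixed list of 36 genes of 55416 in the deposited tables, matched by Ensembl identifier. Of these, 27 were counted as genes of the mature, myelinating cell, among them Enpp6, known from newly forming oligodendrocytes. The rest were 6 transcription factors of the lineage and 3 markers of its precursors. The tissue was compared between B6.EDA+/+ mice and C57BL/6J controls at 2 ages, with 3 EDA and 5 control libraries at 22 months and 5 of each at 12 months. B6.EDA+/+ mice are known as a germ-line model that includes the extra domain A exon of fibronectin constitutively, an exon that wild-type mice splice variably. The labels name no treatment, and both strains share the C57BL/6 background that their names state. Sections of the optic nerve head were captured under a microscope, and the labels do not say how many sections or animals stand behind a library, so p-values measure the spread between libraries, which may be technical in part.

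As background, oligodendrocytes wrap axons of the central nervous system in myelin, and arise from precursor cells that carry the receptor PDGFRA and the proteoglycan NG2. The factors SOX10 and OLIG2 specify the lineage, and MYRF switches on myelin genes when a precursor differentiates. In rodents, axons of retinal ganglion cells cross the optic nerve head without myelin and become myelinated behind it, so myelin RNA in a captured section is commonly read as a sign of how much myelinated nerve it holds. In such bulk samples fewer cells of a type and less RNA per cell cannot be told apart.

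Libraries held 13097498 to 18488733 expected counts. The estimated share of Fn1 transcripts with the EDA exon ran from 0% to 58.5% in the 8 EDA libraries and from 0% to 100% in the 10 controls. These isoform estimates rest on 68 to 1485 Fn1 expected counts a library, and reads over the exon were not counted. They did not follow the labels, but cannot decide whether the label of a library is right. Each library is therefore named by its label only, EDA-labelled or control-labelled. Sex is not given. Xist exceeded Y-linked transcripts in 1 of 3 EDA-labelled and 0 of 5 control-labelled libraries at 22 months, and in 2 of 5 of each at 12 months. In 3 libraries the members stood apart. Control-labelled 22-month library 3 and EDA-labelled 12-month library 3 had the highest myelin values, and in EDA-labelled 12-month library 4 the members disagreed with each other. Counts and medians over the members are given with and without them. Of 11 Schwann cell genes, which mark peripheral myelin and nerve, 7 passed the filter, and they summed to between 176.8 and 798.9 TPM per library, where TPM is a relative transcript abundance scaled for length. Most of the sum was Pmp22, which other cells also make, at 130.4 to 734.8 TPM. The adhesion gene Cdh19 lay between 2.56 and 43.7 TPM, Dhh between 4.3 and 21.94 TPM, and Egr2 between 0 and 23.84 TPM, with its highest value in EDA-labelled 12-month library 3. Prx, a protein of peripheral myelin, was at 0 in 14 libraries and reached 2.26 TPM, and Pmp2 was at 0 TPM in all 18. The part of Schwann cells in the myelin values was not tested.

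Members differed widely in level. By median TPM over the 18 libraries the order was led by Plekhb1, a membrane-associated protein, at 1368 TPM, Qdpr, which regenerates tetrahydrobiopterin, at 573 TPM, and Mbp, myelin basic protein, which compacts the cytoplasmic faces of the sheath, at 319 TPM. Trf, transferrin, had a median of 189 TPM, the tetraspanin Tspan2 142 TPM and Cnp, a cytoplasmic enzyme of noncompact myelin, 75.9 TPM. Between 18.5 and 63.0 TPM stood Mobp, a structural protein of compact myelin (63.0), the carbonic anhydrase Car2 (57.5), Mog, an outer-surface glycoprotein of myelin (33.7), the precursor receptor Pdgfra (29.2) and Enpp6, a choline phosphodiesterase of newly forming oligodendrocytes (18.5). At the foot of the order were Gal3st1, the sulfotransferase that makes sulfatide, at 0.585 TPM, the factor Nkx2-2 at 0.430 TPM, and Olig2 and Gpr17, both with a median of 0.

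Members differed more in their range than in their order. Pdgfra (4.0 to 71.9 TPM), Cspg4 (0.58 to 8.95 TPM), Trf (104 to 481 TPM) and Plekhb1 (232 to 2249 TPM) had a highest library no more than 2.54 times the median. The highest library was 39.4 times the median for Sox10, 32.5 times for the gap junction gene Gjc3, 30.7 times for Mog, 28.1 times for the cytoskeletal Ermn and 23.7 times for Mbp. Neighbours in the order were not separated beyond this spread.

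**Figure D1:**
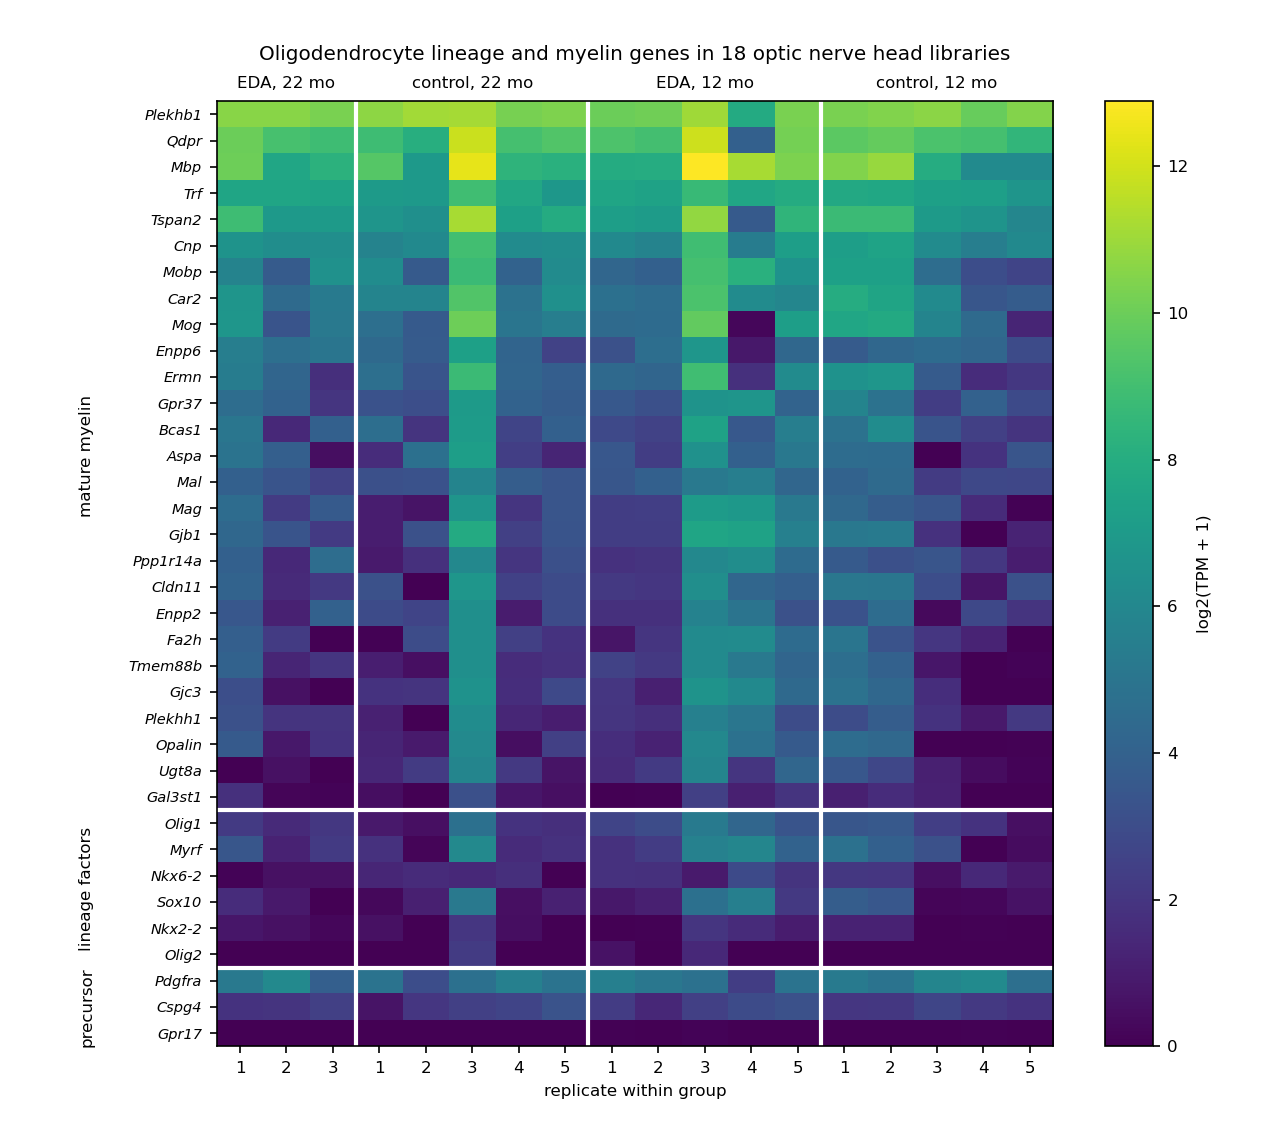
Levels of the 36 members, as log2(TPM + 1) by colour, with genes in rows by role and falling median and the 18 libraries in columns by group. Replicate 3 of the control-labelled libraries at 22 months and replicate 3 of the EDA-labelled libraries at 12 months are bright through most mature rows, and replicate 4 of the EDA-labelled libraries at 12 months is bright in some and dark in others.

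Mature myelin genes had their highest levels in 1 library at each age, under the control label at 22 months and under the EDA label at 12 months. Their summed level was 4956, 2843 and 2720 TPM in EDA-labelled libraries at 22 months, against 3404, 3002, 19030, 2711 and 3059 TPM in control-labelled libraries. The 12-month sums were 2454, 2366, 20170, 4001 and 5194 TPM in EDA-labelled libraries, against 5317, 6077, 3065, 1957 and 2169 TPM in control-labelled ones. One control-labelled library at 22 months and one EDA-labelled library at 12 months were thus more than 3 times as high as any other, and without them the groups overlapped at both ages. Much of the sum in some low libraries was Plekhb1, which did not move with Mbp (r = 0.128 with group means removed). It made up 2165 of 3002 TPM in control-labelled 22-month library 2 and 1436 of 2169 TPM in control-labelled 12-month library 5. In EDA-labelled 22-month library 2 it made up 1552 of 2843 TPM, but in control-labelled 22-month library 3 only 2249 of 19030 TPM. Low sums are thus a poor measure of myelin. Among the 35 members other than Gpr17, control-labelled 22-month library 3 was the highest of all 18 libraries for 22 and EDA-labelled 12-month library 3 for 8. Of the 27 mature genes, 25 had control-labelled 22-month library 3 among their 2 highest libraries and 23 had EDA-labelled 12-month library 3 there.

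Mbp itself had 1055, 198 and 310.3 TPM in EDA-labelled libraries at 22 months, against 715, 120.0, 5464, 327.5 and 289.9 TPM in control-labelled libraries. The EDA-labelled values lay within the control range, and 1 control-labelled library stood far above the rest. At 12 months Mbp had 244, 251, 7563, 2313 and 1283 TPM in EDA-labelled libraries, against 1397, 1939, 251, 70.3 and 69.7 TPM in control-labelled ones. Again the groups overlapped, with the 2 lowest libraries control-labelled and the 2 highest EDA-labelled. The log2 fold change was -1.55 ± 1.31 at 22 months (edgeR, SE, unadjusted p = 0.252) and 1.17 ± 1.08 at 12 months (edgeR, unadjusted p = 0.294), and Mbp did not pass in either. Without control-labelled library 3 the 22-month value was 0.18, and without EDA-labelled library 3 the 12-month value was -0.41.

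Ugt8a, which makes the myelin lipid galactosylceramide, had the smallest p of the members at 22 months. It was listed at 0, 0.47 and 0 TPM in EDA-labelled libraries, against 1.71, 3.74, 56.7, 3.41 and 0.60 TPM in control-labelled libraries. Here the groups did not overlap, although the highest EDA-labelled value, which rests on 16 reads, lay close to the lowest control-labelled one, with 23 reads. Its log2 fold change was -6.31 ± 2.13 (edgeR, unadjusted p = 0.00749, adjusted p = 1.00), and it was -3.90 without control-labelled library 3 and -11.82 without EDA-labelled library 2, which leaves the group at 0 reads. The size of the fold thus rests on the 16 reads of 1 library. DESeq2 called it, at -6.39 with an adjusted p of 0.0245. Of the genes that make the same lipids, Fa2h, the fatty acid 2-hydroxylase, was at -1.72 ± 1.84 and Gal3st1 at -1.06 ± 1.97 (edgeR). Mog, Mag and Ermn, looked up after the values were seen, were not low in EDA-labelled library 1, where Ugt8a was at 0: there Mog was at 108.5 TPM, Mag at 22.2 TPM and Ermn at 41.4 TPM, each above its median over the 18 libraries. In EDA-labelled library 3, where Ugt8a was also at 0, Mog (35.8 TPM) and Mag (11.4 TPM) lay above their medians and Ermn (2.28 TPM) below. In EDA-labelled library 2 Mog (9.33 TPM), Mag (3.65 TPM) and Ermn (17.1 TPM) all lay below their medians. These 3 genes do not stand for the list. Over the 27 mature genes, Ugt8a included, EDA-labelled library 1 was among the 3 lowest libraries for 1 gene, library 2 for 6 and library 3 for 7. Whether Ugt8a went apart from the other myelin genes was not tested.

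Gjc3, a connexin that couples oligodendrocytes, had 7.44, 0.50 and 0 TPM in EDA-labelled libraries at 22 months, against 2.65, 2.79, 92.3, 2.20 and 6.22 TPM in control-labelled libraries. The groups overlapped. Its fold change was -3.10 ± 2.05 on the log2 scale (edgeR, unadjusted p = 0.145), and lay between -6.36, without EDA-labelled library 1, and -0.77, without control-labelled library 3. Gjb1, the connexin of the same family that is also known from peripheral myelin, was at -2.26 ± 1.72 (edgeR, unadjusted p = 0.203).

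At 12 months the member with the smallest p was Mal, a proteolipid of compact myelin. It had 10.0, 14.7, 36.1, 44.9 and 18.3 TPM in EDA-labelled libraries, against 15.3, 20.8, 3.78, 5.92 and 5.74 TPM in control-labelled ones. All 5 EDA-labelled values lay above the 3 lowest control-labelled values, and the 2 highest libraries were EDA-labelled. The log2 fold change was 1.33 ± 0.53 (edgeR, unadjusted p = 0.0198, adjusted p = 1.00), and it stayed between 1.08 and 1.60 with any 1 library of that age left out. Mal had 14.6, 9.02 and 4.78 TPM in EDA-labelled libraries at 22 months, against 7.84, 8.42, 55.2, 12.8 and 9.53 TPM in control-labelled libraries. There the control-labelled values enclosed those of 2 of the 3 EDA-labelled libraries.

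Mag, the adhesion protein of the myelin layer next to the axon, had 4.13, 4.25, 132, 116 and 36.4 TPM in EDA-labelled libraries at 12 months, against 19.6, 13.2, 9.72, 2.05 and 0.04 TPM in control-labelled libraries. In 3 EDA-labelled libraries it exceeded every control-labelled value, while the other two lay below 3 of the 5 controls. Its fold change was 2.46 ± 1.30 (edgeR, unadjusted p = 0.0728), and 1.68 without EDA-labelled library 4. Ppp1r14a, an inhibitor of myosin phosphatase, had 2.54, 2.80, 64.7, 78.7 and 21.4 TPM in EDA-labelled libraries at 12 months, against 11.5, 8.0, 9.65, 3.23 and 1.03 TPM in control-labelled ones. The same 3 EDA-labelled libraries lay above the control-labelled values, at a fold change of 2.13 ± 1.12 (edgeR, unadjusted p = 0.0721).

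With age, Mal and Aspa, which hydrolyses N-acetylaspartate to supply acetate for myelin lipids, had among the 4 smallest p of the members in control-labelled libraries. Mal was at 1.14 ± 0.53 for 22 over 12 months (edgeR, unadjusted p = 0.0421) and at 0.40 without control-labelled 22-month library 3. Aspa had 2.09, 26.5, 147, 4.20 and 1.56 TPM at 22 months, against 22.9, 21.7, 0, 2.64 and 9.68 TPM at 12 months. Its ages overlapped, with the 22-month values both highest and, apart from 1 library listed at 0, lowest. The fold change was 1.66 ± 1.25 (edgeR, unadjusted p = 0.199) and -0.24 without control-labelled 22-month library 3, the one with 147 TPM. In EDA-labelled libraries Ugt8a led again: its 22-month values of 0, 0.47 and 0 TPM stood below 1.96, 3.62, 56.6, 2.92 and 18 TPM at 12 months, without overlap, at -6.62 ± 2.15 (edgeR, unadjusted p = 0.00595, adjusted p = 0.961; DESeq2, adjusted p = 0.0136).

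**Figure D2:**
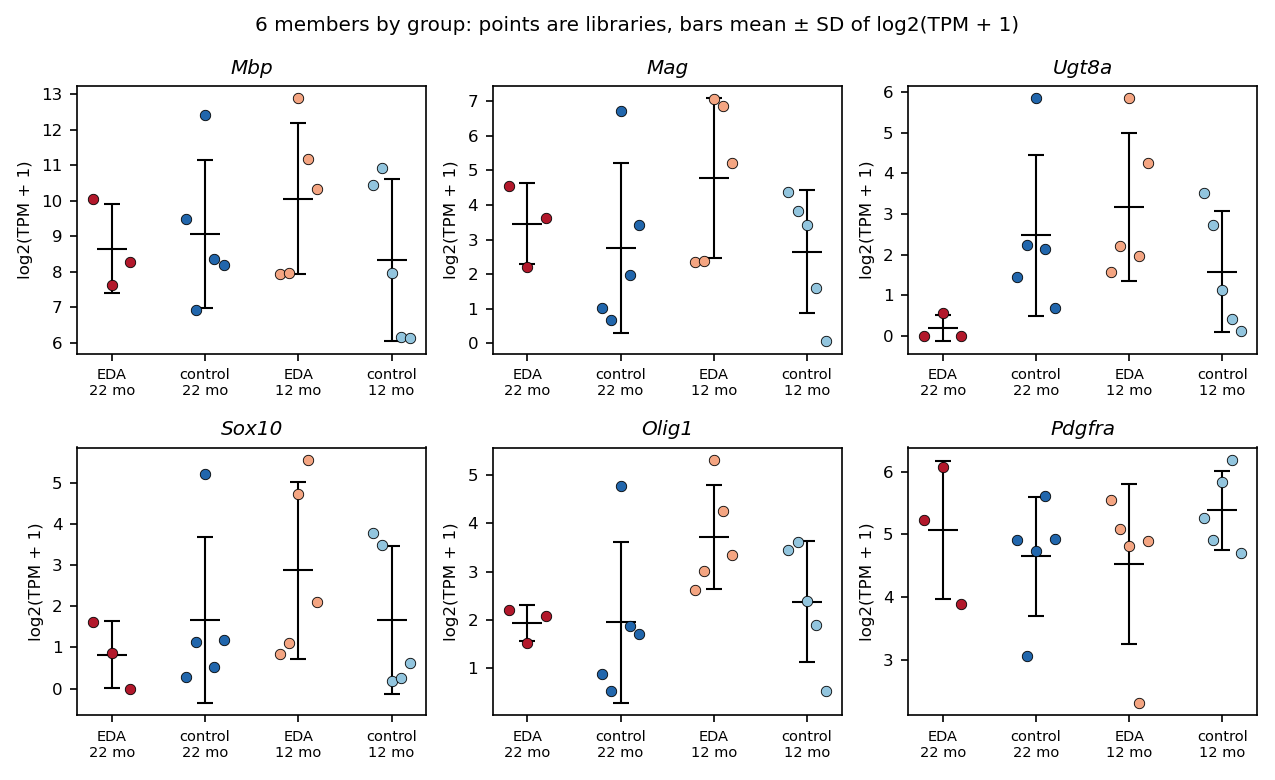
log2(TPM + 1) of Mbp, Mag, Ugt8a, Sox10, Olig1 and Pdgfra in each library by group, with bars for mean ± SD (n = 3, 5, 5 and 5 from left to right). Groups overlap in each panel except for Ugt8a and Olig1 between the EDA-labelled ages and Ugt8a between labels at 22 months. Over all libraries Pdgfra has a narrower range than the other 5 genes, but within the EDA-labelled 22-month group Olig1, Ugt8a and Sox10 spread less.

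Among the 6 lineage factors, 0 passed in edgeR in any comparison. Myrf, the factor that drives myelin genes, had 9.83, 1.38 and 3.5 TPM in EDA-labelled libraries at 22 months, against 2.53, 0.12, 65.5, 2.01 and 2.56 TPM in control-labelled libraries. All but the highest control-labelled library lay below 2 of the 3 EDA-labelled ones. At 12 months Myrf had 2.63, 3.86, 49.6, 60.3 and 15.5 TPM in EDA-labelled libraries, against 27.2, 14.5, 8.09, 0.03 and 0.36 TPM in control-labelled ones. Those groups overlapped too. The fold changes were -1.57 ± 1.61 at 22 months and 1.09 ± 1.32 at 12 months (edgeR), and the 22-month value was 1.11 without control-labelled library 3.

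Sox10, which keeps the lineage identity from precursor to mature cell, had 2.08, 0.81 and 0 TPM in EDA-labelled libraries at 22 months, against 0.22, 1.18, 36.1, 0.45 and 1.28 TPM in control-labelled ones. Apart from the single high control the values overlapped. At 12 months it had 0.79, 1.17, 25.8, 46.3 and 3.33 TPM in EDA-labelled libraries, against 12.8, 10.2, 0.14, 0.19 and 0.54 TPM in control-labelled libraries. EDA-labelled library 4 was the highest of all 18. The fold changes were -3.07 ± 1.95 at 22 months, where the value was 0.69 without control-labelled library 3, and 1.52 ± 1.48 at 12 months (edgeR). For 22 over 12 months in EDA-labelled libraries it was -3.84 ± 2.03 (edgeR, unadjusted p = 0.0734).

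Olig1, a helix-loop-helix factor needed for myelin repair, had 3.58, 1.85 and 3.25 TPM in EDA-labelled libraries at 22 months, against 0.83, 0.44, 26.2, 2.65 and 2.28 TPM in control-labelled libraries. In the younger mice it had 5.17, 7.07, 39.1, 18.1 and 9.21 TPM in EDA-labelled libraries, against 9.96, 11.2, 4.23, 2.72 and 0.44 TPM in control-labelled ones. Between labels the groups overlapped at both ages, but within the EDA label all 3 values at 22 months lay below all 5 at 12 months. That age difference was -2.17 ± 1.17 (edgeR, unadjusted p = 0.0775), and -1.5 without EDA-labelled 12-month library 3. Between labels Olig1 was at -0.91 ± 1.10 at 22 months and 1.18 ± 0.93 at 12 months (edgeR).

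Olig2, the factor that founds the lineage, was scarcely detected. It had 0 reads in 15 of the 18 libraries, 90 reads (3.72 TPM) in control-labelled 22-month library 3, and 12 and 53 reads (0.55 and 1.79 TPM) in EDA-labelled 12-month libraries 1 and 3. Against a floor of 3 reads over a group, Olig2 was at least 17-fold lower in EDA-labelled libraries at 22 months, and at least 22.5-fold higher in them at 12 months. By age it was at least 31.8-fold higher at 22 than at 12 months in control-labelled libraries and at least 12.0-fold lower in EDA-labelled ones. Each bound rests on 1 or 2 libraries and covers counting error only. In edgeR none passed, with unadjusted p of 0.0684, 0.0324, 0.0240 and 0.0848 in that order, whereas DESeq2 called all 4 (adjusted p = 0.00286, 0.000305, 8.94e-05 and 0.00542). Olig2 passed the filter for edgeR only through the 3 libraries that hold its reads. Its p-values and calls are therefore given as descriptions, and no difference between groups is drawn from them.

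Nkx6-2, a homeodomain factor of mature oligodendrocytes, did not follow the 2 libraries of highest Mbp. It had 0.08, 0.47 and 0.50 TPM in EDA-labelled libraries at 22 months, against 1.58, 1.97, 1.80, 2.33 and 0 TPM in control-labelled libraries. At 12 months it had 2.53, 2.40, 0.91, 6.45 and 2.89 TPM in EDA-labelled libraries, against 3.31, 3.08, 0.45, 1.78 and 0.88 TPM in control-labelled libraries. All 3 EDA-labelled values at 22 months lay below the 5 at 12 months, at -2.76 ± 1.41 (edgeR, unadjusted p = 0.0632). Nkx2-2, a homeodomain factor of differentiating cells, stayed at or under 3.09 TPM and was highest in the 2 libraries of highest Mbp.

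The precursor markers behaved otherwise. Pdgfra, the receptor for the mitogen of precursors, had 36.5, 66.3 and 13.9 TPM in EDA-labelled libraries at 22 months, against 28.95, 7.37, 25.7, 47.9 and 29.4 TPM in control-labelled libraries. In the younger mice it had 45.9, 32.97, 27.2, 4.0 and 28.6 TPM in EDA-labelled libraries, against 37.4, 28.99, 56.3, 71.9 and 25.2 TPM in control-labelled ones. The 2 libraries of highest Mbp were unremarkable here, and the highest Pdgfra came from control-labelled 12-month library 4, which had 70.3 TPM of Mbp. Fold changes were 0.52 ± 0.53 at 22 months and -0.78 ± 0.47 at 12 months between labels, and for 22 over 12 months they were 0.54 ± 0.53 under the EDA label and -0.76 ± 0.47 under the control label (edgeR). None passed.

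Cspg4, which encodes the NG2 core protein, had 2.73, 2.87 and 4.44 TPM in EDA-labelled libraries at 22 months, against 0.58, 3.10, 4.35, 5.29 and 8.95 TPM in control-labelled libraries. At 12 months it had 3.95, 1.66, 4.38, 6.81 and 8.10 TPM in EDA-labelled libraries, against 3.18, 3.32, 5.49, 3.39 and 2.67 TPM in control-labelled ones. The groups overlapped at both ages, and the fold changes were -0.26 ± 0.65 and 0.23 ± 0.56 (edgeR). Gpr17, a receptor of cells committed to differentiate, had 2, 5 and 1 reads in EDA-labelled 12-month libraries 1, 3 and 4, 3 reads in control-labelled 12-month library 4 and 0 in the other 14. It was filtered out before testing and no fold is given.

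Both Pdgfra and Cspg4 are also made outside the lineage, Pdgfra by fibroblasts and Cspg4 by pericytes. The fibroblast and meninges list of 8 genes summed to between 117.5 and 534.5 TPM in EDA-labelled and between 166 and 252 TPM in control-labelled libraries at 22 months. At 12 months it summed to between 165 and 286 TPM in EDA-labelled and between 156 and 242 TPM in control-labelled libraries. The 8 pericyte and smooth muscle genes summed to between 60.6 and 77.2 TPM in EDA-labelled and between 29.52 and 68.9 TPM in control-labelled libraries at 22 months. At 12 months that sum was 37.7 to 163 TPM in EDA-labelled and 36.4 to 57.2 TPM in control-labelled libraries. The part of these cells in the precursor values was not tested.

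The balance of mature to precursor genes was taken as the mean log2(TPM + 1) of the 27 mature genes less that of the 3 precursor genes. It was 2.90, 0.98 and 1.72 in EDA-labelled libraries at 22 months, against 1.99, 1.84, 5.41, 1.12 and 1.44 in control-labelled libraries. The 12-month balance was 1.20, 1.62, 5.15, 3.30 and 2.94 in EDA-labelled libraries, against 3.29, 3.4, 0.93, 0.25 and 0.68 in control-labelled ones. The mean difference between labels was -0.49 at 22 months and 1.13 at 12 months, each smaller than the larger SD of the 2 groups (1.74 and 1.56). The first lay between -1.01, without EDA-labelled library 1, and 0.27, without control-labelled library 3. The second lay between 0.55, without EDA-labelled library 3, and 1.55, without control-labelled library 2. The 2 libraries of highest Mbp had the highest balances, and control-labelled 12-month library 4 the lowest.

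Taking the list as one, edgeR tested 35 members and called 0 of them in each of the 4 comparisons and in the interaction of label and age. The same holds for 0% of the 15118 genes tested. At 22 months 2 of the 35 members lay above 0 between labels, with a median log2 fold change of -1.45, where 46.0% of all genes lay above 0. At 12 months 33 of 35 lay above 0 with a median of 1.10, against 49.5% of all genes. For 22 over 12 months 3 of 35 lay above 0 in EDA-labelled libraries (median -1.83, against 46.9% of all genes) and 32 of 35 in control-labelled libraries (median 0.71, against 51.6%). The medians of all tested genes in these comparisons lay between -0.07 and 0.02. In the interaction 2 of 35 members lay above 0 with a median of -2.46, against 47.2% of all genes. The label and age comparisons share libraries, so these counts are not independent of each other. With Olig2 put at its bound the 4 medians kept these values.

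At an unadjusted p under 0.05 in edgeR there was 1 member at 22 months (Ugt8a), against 3.96% of all genes, and 2 at 12 months (Mal and Olig2), against 4.56%. There were 2 for age in control-labelled libraries (Olig2 and Mal), against 3.51%, and 1 in EDA-labelled ones (Ugt8a), against 4.98%. The interaction had 3 in edgeR, Ugt8a (-8.26 ± 2.50, unadjusted p = 0.0035), Olig2 (unadjusted p = 0.0113) and Mal (-2.27 ± 0.82, unadjusted p = 0.0117), against 4.02%. The shares of members, at 1 to 3 of 35, were near those of all genes. DESeq2 called 2 members at 22 months, against 0.305% of its genes, 1 at 12 months (0.181%), 1 for age in control-labelled libraries (0.184%), 2 in EDA-labelled ones (0.303%) and 2 in the interaction (0.266%). They were Ugt8a and Olig2 in each case of 2, and Olig2 in each case of 1. Olig2 was tested in edgeR only because of the 3 libraries that hold its reads, so its place in these counts is a description. limma voom with quality weights called 0 members in any of the 5.

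**Figure D3:**
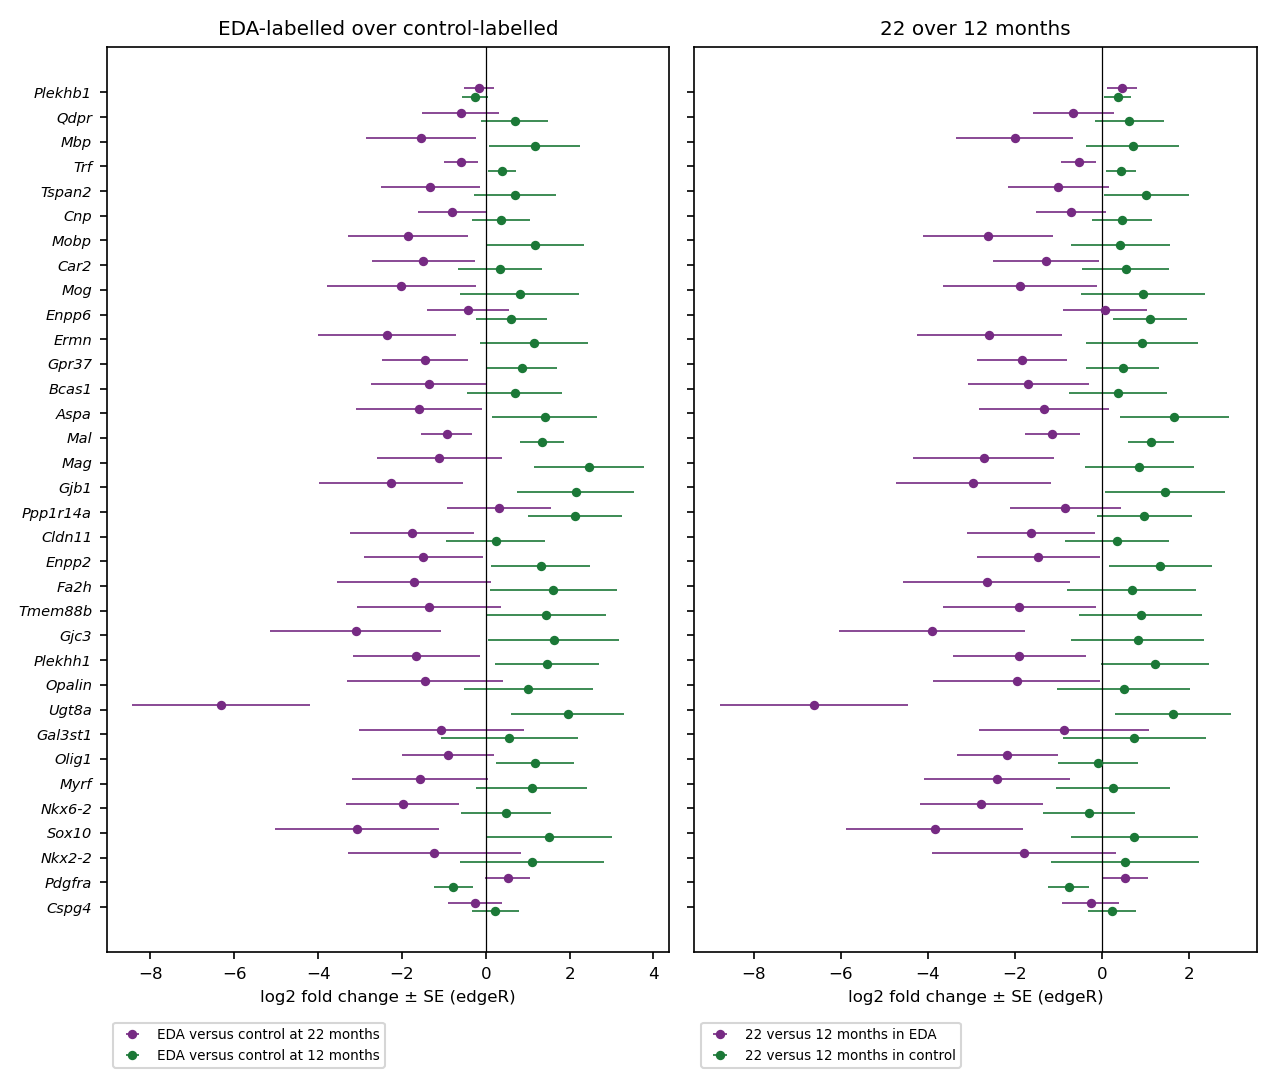
edgeR log2 fold changes with standard errors of 34 tested members (Olig2, which had 0 reads in whole groups, is left out), between labels on the left and between ages on the right. Most points of the 22-month label comparison and of the age comparison in EDA-labelled libraries lie left of 0, most of the other two lie right of it, and Ugt8a has the lowest values in both panels.

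Some of these directions turned with few libraries left out. Without control-labelled 22-month library 3 and EDA-labelled 12-month library 3, a choice made after the values were seen, 24 of 34 tested members lay above 0 at 22 months (median 0.41) and 20 of 34 at 12 months (median 0.36). For age, 8 of 34 then lay above 0 in EDA-labelled libraries (median -0.63) and 3 of 34 in control-labelled ones (median -1.12). With EDA-labelled 12-month library 4 also left out, 9 of 34 lay above 0 at 12 months, at a median of -0.43. Group medians of TPM, which single libraries move less, gave another view: at 22 months the EDA-labelled median was the higher one for 18 of 35 members and the lower one for 16, against 51.4% of all genes higher. At 12 months it was higher for 29 and lower for 5, against 62.9% of all genes. For age it was higher at 22 months for 7 and lower for 27 in EDA-labelled libraries, against 41.1% of all genes higher, and higher for 19 and lower for 15 in control-labelled ones, against 49.6%.

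Groups did not overlap in TPM for 1 of 35 members at 22 months, which was Ugt8a, against 2.37% of all genes, and for 0 at 12 months, against 1.76%. For age the ages did not overlap for 3 members in EDA-labelled libraries, Ugt8a, Olig1 and Nkx6-2, against 3.88%, and for 0 in control-labelled libraries, against 0.410%.

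**Figure D4:**
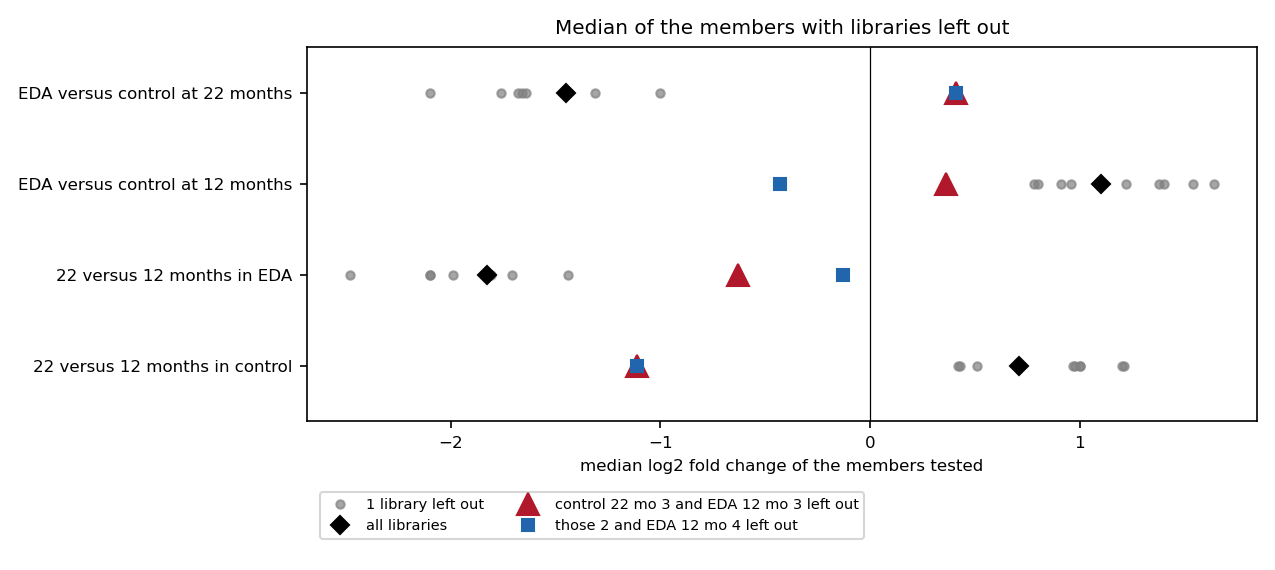
Median log2 fold change of the tested members in 4 comparisons, with all libraries (diamond), with each single library left out (circles), with the 2 libraries of highest Mbp left out (triangle) and with a further library left out (square). The diamond stands at -1.45 for EDA-labelled over control-labelled libraries at 22 months and the triangle at 0.41, and triangle and square coincide in the 22-month comparison and in the age comparison under the control label, where they also cover 1 circle.

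Across the 18 libraries, with each group's mean removed, most mature genes moved with Mbp. Of 45 relations planned, 44 could be computed because 1 marker was at 0 throughout, and in 30 the permutation p adjusted over the 44 was under 0.05, 28 of them with members. The libraries share a TPM scale, in which values sum to a fixed total, and had similar depth. The closest were Tmem88b, a membrane protein (r = 0.948, rho = 0.909), and Myrf (r = 0.948, rho = 0.938), each with a permutation p of 0.00001, the smallest that 100000 permutations can give, and 3.4e-05 after adjustment. Leaving out the 2 libraries farthest from the median of Mbp, they were at 0.933 and 0.939. Next came Mobp (r = 0.939, rho = 0.907), Gjc3 (0.939 and 0.876), Nkx2-2 (0.938 and 0.866), Opalin, a sialylated membrane protein of myelin (0.935 and 0.833), and Cldn11, which seals the myelin layers (0.934 and 0.899), and without the 2 farthest libraries their r was between 0.896 and 0.914.

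Not called on r were 7 of the 35 other members: Enpp6 (r = 0.459, rho = 0.503, permutation p = 0.0553 for r), Qdpr (0.364 and 0.554, permutation p = 0.141), Plekhb1 (0.128 and 0.150, permutation p = 0.635), Nkx6-2 (0.185 and 0.265, permutation p = 0.463), Pdgfra (-0.149 and -0.284, permutation p = 0.558), Cspg4 (0.114 and 0.251, permutation p = 0.659) and Gpr17 (0.084 and -0.067, permutation p = 0.748). The relation with Olig2 (r = 0.561, permutation p = 0.0102, adjusted 0.0155) rested on the 2 farthest libraries, without which r was 0.044. Mog, Aspa and Tspan2 (r = 0.696, 0.600 and 0.637, permutation p of 0.00131, 0.00949 and 0.00425) were at 0.514, 0.386 and 0.382 without those 2. Of the 7 other computed markers of other cell types none was called on r, among them Gfap of astrocytes (r = 0.156, permutation p = 0.540), Col1a1 of fibroblasts (0.160, permutation p = 0.522) and Nefl of axons (-0.104, permutation p = 0.690). The microglial C1qa was called (r = 0.566, rho = 0.443, permutation p = 0.0142, adjusted 0.0209), and was at 0.312 without the 2 farthest libraries. On rho the calls differed for Qdpr (permutation p adjusted to 0.0305) and the muscle gene Ttn (0.0439), which passed, and for Olig2 (0.290) and C1qa (0.0917), which did not.

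**Figure D5:**
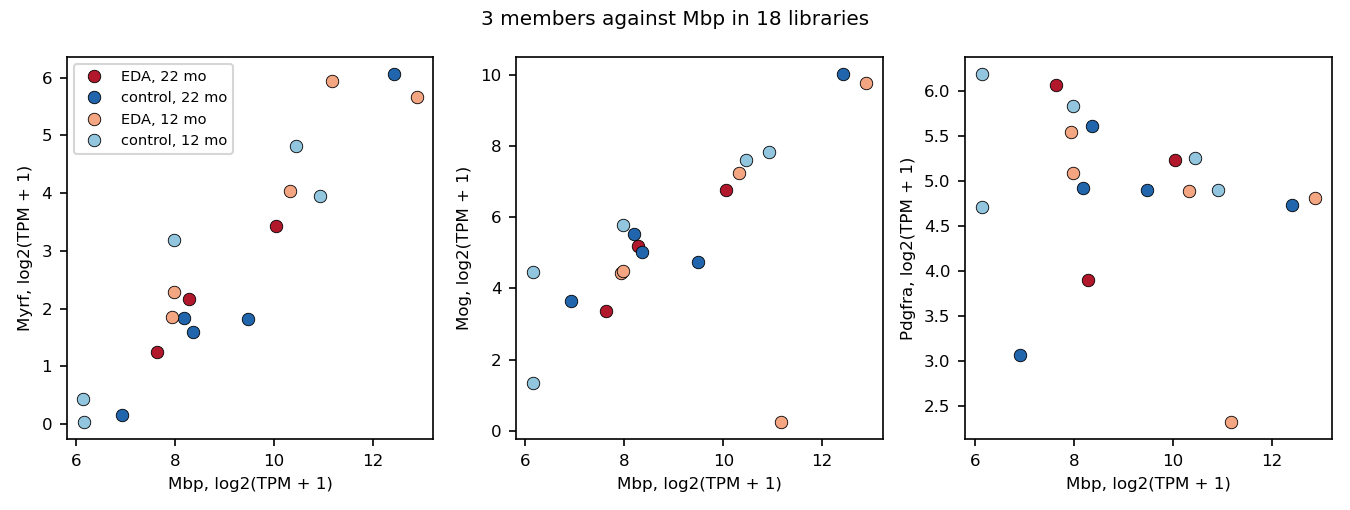
Myrf, Mog and Pdgfra against Mbp in the 18 libraries, all as log2(TPM + 1) and coloured by group. Myrf climbs with Mbp (r = 0.948 with group means removed), Mog does so except for 1 EDA-labelled 12-month library near 0, and Pdgfra does not (r = -0.149).

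Microglial transcripts were high in the same 2 libraries as myelin. The 10 microglial genes summed to 1178, 836 and 507 TPM in EDA-labelled libraries at 22 months, against 610, 1048, 2127, 1105 and 775 TPM in control-labelled ones. At 12 months they summed to 745, 662, 1869, 706 and 521 TPM in EDA-labelled libraries, against 804.8, 1021, 805.5, 548 and 609 TPM in control-labelled libraries. Astrocyte genes did not stand out there: their sum was 8648 TPM in EDA-labelled 12-month library 3 and 5442 TPM in control-labelled 22-month library 3, against 3673 to 19980 TPM over all libraries. The part of microglia in the myelin values was not tested.

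Of 7569 other genes whose mean reached 2 log2 CPM, those most like Mbp over the 18 libraries included Sez6l2 (Pearson r of log2 CPM, 0.92), Klk6 (0.899), Prr18 (0.886), Cntn2 (0.883), Tmcc2 (0.876), Hcn2 (0.875), Tmem151a (0.873), Nkain2 (0.871) and Il33 (0.867). These are descriptions of likeness over the same libraries, with no test.

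In EDA-labelled 12-month library 4 the members split. Sox10 (46.3 TPM), Ppp1r14a (78.7 TPM) and Nkx6-2 (6.45 TPM) had their highest value of all libraries there, and Mag (116 TPM), Gjb1 (168 TPM), Fa2h (74.1 TPM), Gpr37, a receptor of maturing oligodendrocytes (103 TPM), and Myrf (60.3 TPM) came close to EDA-labelled library 3. Mog had 0.19 TPM there against 870 TPM in library 3, Qdpr 14.3 against 3886 TPM, Ermn 2.47 against 491 TPM, Tspan2 11.5 against 1791 TPM and Enpp6 0.76 against 109 TPM. Of 35 members, 15 were within 1 log2 unit of library 3 and 10 were more than 3 log2 units below it. Against the median of the other 17 libraries 24 were higher and 10 lower. Library 4 also had the lowest Pmp22 and Cryab (27.6 TPM, against 1361 TPM), and the highest Gfap (17690 TPM). Over 7545 genes, deviations from the other libraries had a rank correlation with transcript GC content of 0.25 in that library, the highest of the 18, which ran from -0.23 to 0.25. Over the 35 members the rank correlation of GC content with the difference from library 3 was 0.39, and with transcript length 0.22. These values are descriptions, and their part in the split was not tested.

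Isoform estimates showed what the gene totals hold. RSEM placed 97.6% of the Cspg4 TPM on transcripts annotated as retained introns and 2.45% on the coding one, which stayed at or under 0.77 TPM in every library. For Pdgfra 48.8% lay on the short coding transcript Pdgfra-209, of 615 nt, and 10.2% on full-length coding transcripts, between 0.19 and 9.54 TPM per library. Retained-intron transcripts took 47.1% of Sox10, 41.7% of Qdpr, 40% of Plekhb1 and 24.7% of Enpp6. The leading transcripts of Mobp, with 44.1%, and of Nkx6-2, with 52.7%, are annotated for nonsense-mediated decay. Full-length coding transcripts took 0% of Plekhb1 and 6.02% of Enpp6. They also took 0% of Tspan2, Bcas1 and Gpr37, 3.31% of Mag, 11.2% of Nkx2-2 and 12.7% of Plekhh1. By these estimates, levels of the genes named here are at most in part levels of messages for the full protein. These genes are examples, and other members were not at 100% either. The library kit keeps no strand, so reads of overlapping antisense genes could not be separated.

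Mbp has 2 transcription units: the long golli forms start far upstream and are also made outside oligodendrocytes, and the classic forms encode the myelin proteins. Golli forms took 0.388%, 0.248% and 0.345% of Mbp TPM in EDA-labelled libraries at 22 months, against 0.478%, 0.683%, 0.419%, 0.443% and 1.16% in control-labelled ones. At 12 months they took 1.04%, 0.155%, 0.255%, 1.06% and 0.264% in EDA-labelled libraries, against 0.460%, 0.132%, 0.179%, 1.17% and 8.59% in control-labelled libraries. Classic forms thus made up nearly the whole signal, and the exception, control-labelled 12-month library 5, had the lowest Mbp. The leading isoform was Mbp-211, of 128 residues, with 47.1% to 80.8% of Mbp TPM in 17 libraries and 15.9% in EDA-labelled 12-month library 4. In that library Mbp-203, a transcript of 354 nt annotated without untranslated ends, took 63.8%, against at most 34.2% elsewhere.

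Exon 2 of the classic unit is included mainly in early myelination, as known from rodent development. Among classic coding forms those with exon 2 took 12.5%, 7.27% and 13% of TPM in EDA-labelled libraries at 22 months, against 9.32%, 21.2%, 9.06%, 13.6% and 10.6% in control-labelled libraries. At 12 months they took 8.14%, 6.87%, 9.71%, 17.5% and 13.2% in EDA-labelled libraries, against 8.74%, 10.5%, 7.74%, 11.6% and 8.99% in control-labelled ones. The groups overlapped at both ages, and the 2 libraries of highest Mbp were at 9.06% and 9.71%.

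Promoter sequences were read for 26 members with an entry in RefSeq's table (GRCm38.p6), each as up to 250 bases before the start farthest upstream. Some stretches were shorter, such as 215 bases for Mobp and 157 bases for Olig2. Those of 3 genes that hold ACAAAG, picked for that motif among the genes that moved with Mbp, are shown to display where it lies, with that of Pdgfra, which did not move with Mbp. Tmem88b, Gjc3 and Cldn11, which moved with Mbp about as closely as Mobp, held none of the motifs searched. Capitals mark ACAAAG, a SOX core motif, and, in Mag, also CTGGCAC, a MYRF motif, on either strand, and the stretches end before the first annotated transcript. Mobp is at chr9:120149492-120149706 on the plus strand, Mag at chr7:30914923-30915172 and Opalin at chr19:41077114-41077363 on the minus strand, and Pdgfra at chr5:75152001-75152250 on the plus strand.
Mobp: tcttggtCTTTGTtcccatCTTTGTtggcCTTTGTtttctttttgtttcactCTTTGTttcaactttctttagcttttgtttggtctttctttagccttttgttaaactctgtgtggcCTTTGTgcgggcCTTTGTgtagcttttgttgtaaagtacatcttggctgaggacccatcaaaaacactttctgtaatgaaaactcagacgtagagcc
Mag: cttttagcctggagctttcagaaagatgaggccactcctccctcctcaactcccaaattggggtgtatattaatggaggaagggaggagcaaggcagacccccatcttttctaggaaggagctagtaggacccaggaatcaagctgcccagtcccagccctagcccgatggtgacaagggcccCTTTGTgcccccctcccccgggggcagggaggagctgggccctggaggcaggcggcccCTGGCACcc
Opalin: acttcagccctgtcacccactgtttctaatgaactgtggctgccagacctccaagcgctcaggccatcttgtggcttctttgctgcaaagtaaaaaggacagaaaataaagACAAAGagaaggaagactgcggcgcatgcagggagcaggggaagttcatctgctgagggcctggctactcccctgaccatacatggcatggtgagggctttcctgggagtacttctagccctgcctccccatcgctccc
Pdgfra: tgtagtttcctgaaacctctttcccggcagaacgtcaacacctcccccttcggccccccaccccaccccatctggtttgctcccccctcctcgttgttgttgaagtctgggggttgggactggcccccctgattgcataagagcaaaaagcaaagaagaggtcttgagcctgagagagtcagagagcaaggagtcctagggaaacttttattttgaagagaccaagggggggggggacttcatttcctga

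ACAAAG stood in 5 of the 26 promoters (19.2%): Cnp, Gjb1, Mag, Mobp and Opalin, against 16.5% of 27025 promoters. CTGGCAC stood in 2 (7.69%), Cnp and Mag, against 4.16%, and the E-box CAGCTG in 1 (3.85%), Aspa, against 12.7%. Within the printed stretches no match overlaps another. Mobp held ACAAAG 6 times, all read on the minus strand. Pdgfra held none of the 3. The shares of the members were near those of all promoters for ACAAAG, and a match in these letters is a description only.

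Genes of the same pathway outside the list were counted from lists chosen with earlier results known. Of 30 further genes of mature oligodendrocytes 28 were tested, and 0 passed in edgeR. At 22 months 6 of 28 lay above 0 between labels, with a median of -0.84. The smallest p belonged to Edil3, an integrin ligand, at -2.71 ± 1.5 (unadjusted p = 0.0861), and Evi2a, a transmembrane protein, at -3.19 ± 1.90 (unadjusted p = 0.108). At 12 months 20 of 28 lay above 0 (median 0.39), with Ndrg1, a stress-responsive protein of myelinating cells, at 0.66 ± 0.27 (unadjusted p = 0.0261). Nipal4, a magnesium transporter, had 148 reads in 2 EDA-labelled libraries, against 0 in control-labelled ones, and was at least 51.3-fold higher against a floor of 3 reads over the group (edgeR, unadjusted p = 0.0208). For age 8 of 28 lay above 0 in EDA-labelled libraries (median -0.92), with Ndrg1 at -0.68 ± 0.32 (unadjusted p = 0.0472) and Lpar1, a lysophosphatidic acid receptor, at 0.95 ± 0.46 (unadjusted p = 0.0505). In control-labelled libraries 20 of 28 lay above 0 for age (median 0.32), with Tmem63a, an ion channel, at 0.62 ± 0.51 (unadjusted p = 0.236), and Nipal4 at least 70.3-fold higher at 22 months from 199 reads in library 3 alone. Nipal4 had 0 reads in most libraries, so its bounds and its p rest on the few that hold it. The bounds cover counting error only. These genes summed to 25030 TPM in EDA-labelled 12-month library 3 and 25280 TPM in control-labelled 22-month library 3, against at most 11330 TPM elsewhere. Without those 2 libraries 15 of 27 lay above 0 at 22 months (median 0.07) and 10 of 27 at 12 months (median -0.40), and for age 12 of 27 under the EDA label (median -0.53) and 7 of 27 under the control label (median -0.69). With EDA-labelled 12-month library 4 also left out, 3 of 27 lay above 0 at 12 months (median -0.53) and 18 of 27 for age under the EDA label (median 0.37).

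Further precursor genes were split evenly. Of 18, 15 were tested, and 8 lay above 0 in each of the 4 comparisons, with medians of 0.21 at 22 months and 0.09 at 12 months between labels. For 22 over 12 months the EDA-labelled median was 0.24 and the control-labelled one 0.04. Sox5 was at -0.70 ± 0.43 and the calcium channel Itpr2 at 0.74 ± 0.47 at 22 months, and Bmp4, a secreted growth factor, at -2.91 ± 2.05 and C1ql1 at -1.07 ± 0.81 at 12 months (edgeR). With age, Ptprz1, a receptor phosphatase that astrocytes share, was at -0.81 ± 0.36 (edgeR, unadjusted p = 0.0345) in EDA-labelled libraries. Pcdh15 was at 2.88 ± 1.65 and Sox5 at 0.48 ± 0.37 in control-labelled libraries. None passed adjustment in edgeR. Without the 3 libraries that stood apart the precursor medians were 0.29 at 22 months, -0.08 at 12 months, and for age 0.77 under the EDA label and -0.08 under the control label.

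Myelin membranes need cholesterol and fatty acids, and 15 genes of their synthesis were tested. At 22 months 2 of 15 lay above 0 between labels (median -0.92, and -0.36 without the 2 libraries of highest Mbp), and the squalene synthase Fdft1 had the smallest p in edgeR (-2.48 ± 1.17, unadjusted p = 0.0462). At 12 months 8 of 15 lay above 0 (median 0.07, and -0.23 without those 2), with Fdps of the mevalonate pathway at -1.66 ± 1.18. Mvd, of the same pathway, had 0 reads in EDA-labelled libraries, against 19 reads in 1 control-labelled library, and was at least 6.09-fold lower against a floor of 3 reads over the group. For age 3 of 15 lay above 0 in EDA-labelled libraries (median -0.86, and -0.67 without those 2), with the desaturase Scd2 at -0.86 ± 0.38. Mvd, from 56 reads in 1 EDA-labelled library at 22 months and 0 at 12 months, was at least 33.6-fold higher at 22 months. Each Mvd bound rests on 1 library and covers counting error only. In control-labelled libraries 9 of 15 lay above 0 for age (median 0.24, and -0.23 without those 2), with the epoxidase Sqle at 0.87 ± 0.47. None passed adjustment in edgeR. The summed level of these genes was highest in the 3 libraries named at the start, at 1320 TPM in control-labelled 22-month library 3, and 1193 and 1321 TPM in EDA-labelled 12-month libraries 3 and 4, against 234.5 to 941 TPM elsewhere.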

How the data were processed

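RNA was extracted from laser-captured optic nerve head sections, copied with SMART-Seq v4, made into Nextera XT libraries and sequenced from both ends, per the labels' protocols. The authors used STAR and RSEM, per the labels, whose versions are not stated there, and GRCm39 is the build named in the submitters' processing notes. The deposited tables hold the authors' expected counts (3.59% of gene values were not whole), rounded here before testing, and the authors' TPM values, used for levels and isoform shares.

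Symbols came from GENCODE M21 by identifier. Members and lists were chosen with earlier results of these data known. Counts were filtered (filterByExpr, 15118 genes), scaled by TMM and fitted over 4 group means in edgeR 4.0.16 (quasi-likelihood, robust, two-sided), with Benjamini-Hochberg adjustment over all genes at 0.05. DESeq2 1.42.0, limma 3.58.1 voom with quality weights, other scalings and left-out libraries were alternatives. Relations with Mbp used log2(TPM + 1) less group means, Pearson and Spearman, two-sided, with 100000 permutations. Samples were grouped by label, and replicate numbers follow accession order, so none were paired. Same-group libraries all differed beyond counting noise (chi-square per degree of freedom at least 42.8). Named by rule were Mbp, the 3 precursor markers, Sox10, Olig1, Olig2, Myrf, the 4 members with the smallest p per comparison, the 2 such genes of each other list and the 10 genes most like Mbp. Some genes that this rule names are not reported here. Other genes were named for their role after values were seen.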

Additional observations from a re-analysis of the deposited data

Results flagged for a closer look

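Within groups of 5 libraries a single value stood far from the other 4 in 15 of 48 groups examined, and the gaps below largely repeat the same libraries. TPM values were skewed, with a few far above the rest, and the groups were not independent. How often chance gives such gaps was not tested. The summed mature myelin genes reached 20170 TPM in EDA-labelled 12-month library 3 and 19030 TPM in control-labelled 22-month library 3. Mbp reached 7563 TPM in the EDA-labelled library and 5464 TPM in the control-labelled one. In control-labelled 22-month library 3 the myelin genes Mag (104.8 TPM), Mal (55.19 TPM), Ugt8a (56.7 TPM), Ppp1r14a (63.94 TPM), Aspa (146.5 TPM) and Gjc3 (92.31 TPM) also stood apart. So did the factors Myrf (65.52 TPM), Sox10 (36.06 TPM), Olig1 (26.24 TPM) and Olig2 (3.72 TPM). The one gap elsewhere was Cspg4 in control-labelled 12-month library 3, at 5.49 TPM. The 3 EDA-labelled libraries at 22 months were too few for this check.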

How the results depend on the processing

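edgeR called 0 genes in each comparison, with 599, 689, 530, 753 and 608 genes at an unadjusted p under 0.05 for the 22-month label, 12-month label, control age, EDA age and interaction comparisons. In that order DESeq2 called 47, 32, 31, 51 and 42 genes and limma voom 1, 2, 0, 0 and 1. Leaving out 1 library gave 0 to 1 genes at 12 months, the 1 without EDA-labelled library 4. No paired analysis was possible because replicate numbers only follow accession order.

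The members' median at 22 months ranged from -2.10 to 0.41 with 1 library left out, and was 0.41 without the 2 libraries of highest Mbp and without the 3 that stood apart, settings chosen after seeing the data. For age under the EDA label it was -0.28 in voom and -0.13 without those 3.

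Directions of single genes turned, and the cause was not tested. At 22 months, with 1 library left out, Mbp ranged from -2.40 to 0.18, Sox10 from -4.03 to 0.69, Olig1 from -1.31 to 0.99, Myrf from -2.32 to 1.11 and Cspg4 from -0.87 to 0.23. Without the 2 and without the 3 libraries, Mbp was 0.18 and 0.19, Sox10 0.69 and 0.68, Olig1 0.99 in both and Myrf 1.12 in both. At 12 months Mbp ranged from -0.41 to 1.91, was -0.41 without the 2 and -0.64 without the 3, where Sox10 was -1.35 and Myrf -0.69, and Cspg4 was -0.12 in voom. For age under the control label Mbp ranged from -1.02 to 1.46, Sox10 from -3.02 to 1.39, Myrf from -2.43 to 0.92, Aspa from -0.24 to 2.18, Olig1 from -1.98 to 0.38 and Cspg4 from -0.26 to 0.51. Without the 2 and without the 3, Mbp was -1.02 in both, Sox10 -3.02 and -3.01, Myrf -2.43 in both and Aspa -0.25 and -0.24. Olig1 was then -1.98 in both, and Cspg4 was -0.07 in voom. Precision is limited by groups of 3 to 5 libraries and, for Olig2, by 0 to 90 reads a library.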
